A study of Mus musculus with 28 samples.

Results

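The genes described here are 36 enzymes and carriers of amino acid catabolism and the urea cycle, chosen by gene symbol out of 22116 named genes measured in liver and 21797 measured in kidney. All 36 symbols were present in both tissues. Messenger RNA was sequenced from male C57BL/KsJ db/db mice, an obese and diabetic line that lacks a working leptin receptor, and every group carried this genotype, so no lean animals enter any comparison. Sedentary control mice were compared with mice given interval training at high intensity (HIIT), mice given semaglutide, a drug that activates the GLP-1 receptor, and mice given both (combined). The mice were 8 weeks old at the start and were treated for 8 weeks. Training was on a treadmill on 5 days a week, in 10 bouts of 4 min with 2 min of recovery between them, and the sample titles give 60 min of exercise. The drug was given under the skin every day, at a dose written as 0.05 mg/kg in the titles and as 30 nmol/kg in the protocol, which are not the same amount. There were 3 libraries per group in liver and 4 in kidney. The labels do not say that each library came from a separate mouse, so p-values reflect the variation among these libraries alone, and part of it may be technical.

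Amino acids that are not needed for protein are broken down mainly in the liver. Their nitrogen is collected by transaminases and glutamate dehydrogenase, passed as ammonia and aspartate into the urea cycle of periportal hepatocytes, and excreted as urea, while the carbon skeletons feed glucose and energy production. Glucagon, glucocorticoids and a high-protein diet are known to raise many of these enzymes in liver, and insulin is known to lower them. The kidney shares part of the pathway: its proximal tubule makes arginine from citrulline with Ass1 and Asl, but it does not run a full urea cycle.

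Levels are given in FPKM, a density of sequenced fragments scaled to transcript length and library total. Read counts are not part of these values, so the depth behind each library is unknown. Changes are differences between group means of log2(FPKM + 1), followed by ± and the standard error, and were tested with limma, and a gene is said to have passed where its p-value, adjusted over all genes tested in that tissue by the Benjamini-Hochberg method, was under 0.05. In liver 2 libraries and in kidney 1 stood apart from the rest of their groups. Liver control 3 was the lowest of its group for 30 of the 36 genes, at a median of 0.644 times the mean of the other controls. The median over all genes tested was 0.962 there. Its hepatocyte markers summed to 16582 FPKM against a mean of 27533 in the other controls, and its macrophage markers to 352 against 37.7. Liver semaglutide 2 was the lowest of its group for 34 of 36, at a median ratio of 0.641, while the median over all genes tested was 1.2. Its skeletal muscle markers summed to 9878 FPKM against at most 1.85 in any other liver library. Kidney control 1 was the lowest of its group for 25 of the 27 genes tested there, at a median ratio of 0.597. Over all genes tested in kidney its median ratio was 1.2. Its macrophage markers summed to 4800 FPKM against a mean of 96.5. Results that turn on these libraries are given with and without them. The libraries were set apart partly by low values for these same genes, so results without them are no independent support. Acute phase genes, which the liver raises in inflammation, summed to 7383, 39863 and 80433 FPKM in liver controls 1 to 3 and to 2554 to 9672 in the other liver groups, so controls 2 and 3 were both high, and the part of this in the comparisons with control was not tested. The tissue labels matched the markers otherwise: 5 of 6 hepatocyte markers were found and summed to 16582 to 40585 FPKM in liver and 89.6 to 435 in kidney, and the 6 proximal tubule markers summed to 1975 to 10535 FPKM in kidney and to at most 0.818 in liver.

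In control liver the 36 genes spanned levels from 21.4 ± 7.7 FPKM (SD, n = 3) for Amt, a subunit of the glycine cleavage system, to 2936 ± 914 for Bhmt, which remethylates homocysteine with betaine. Next to Bhmt stood Mat1a at 2152 ± 343 FPKM and Ass1 at 2118 ± 629, then Gnmt, Arg1, Hpd and Tat, the last with a mean of 1082 FPKM. The SDs of these neighbours overlap, so their order is not fixed by these libraries. Together the 36 genes held 2.46 to 4.47% of the FPKM of named genes in a liver library, lowest in semaglutide 2 and highest in HIIT 2. All 36 were above 1 FPKM in every liver library and all were tested.

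In liver, semaglutide was the treatment with which genes of the group passed the test. Comparing the 6 libraries that received the drug, alone or with training, with the 6 that did not, 31 of the 36 genes had a lower mean, against 38.5% of all genes tested. Of the 36, 7 fell and 0 rose at the adjusted threshold, while 2.01% of all genes passed and 1.02% passed downward. The 7 were Cbs, Slc7a2, Slc25a15, Agxt, Hal, Tat and Sds, and they come from the transsulfuration, urea cycle, serine and glyoxylate, histidine and tyrosine steps. The median change was -0.33 for the 36 genes and 0.06 for all genes tested. In these bulk samples, fewer hepatocytes and less RNA per hepatocyte cannot be told apart. Without liver control 3 and semaglutide 2, 17 genes fell and 1, Bhmt, rose, including all 7 above, where 7.38% of all genes passed, 4.39% downward and 2.99% upward. The median of the 36 genes was again -0.33, and that of all genes was -0.01. Control 3 was set apart partly by its low values for these genes, so the larger count is no independent support. Single libraries move the count: it was 13 without control 3, 4 without control 2, and 3 without HIIT 1 or without HIIT 3. Shares of all genes passed are not given for these fits, so the moves are not read as particular to the 36 genes.

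**Figure D1:**
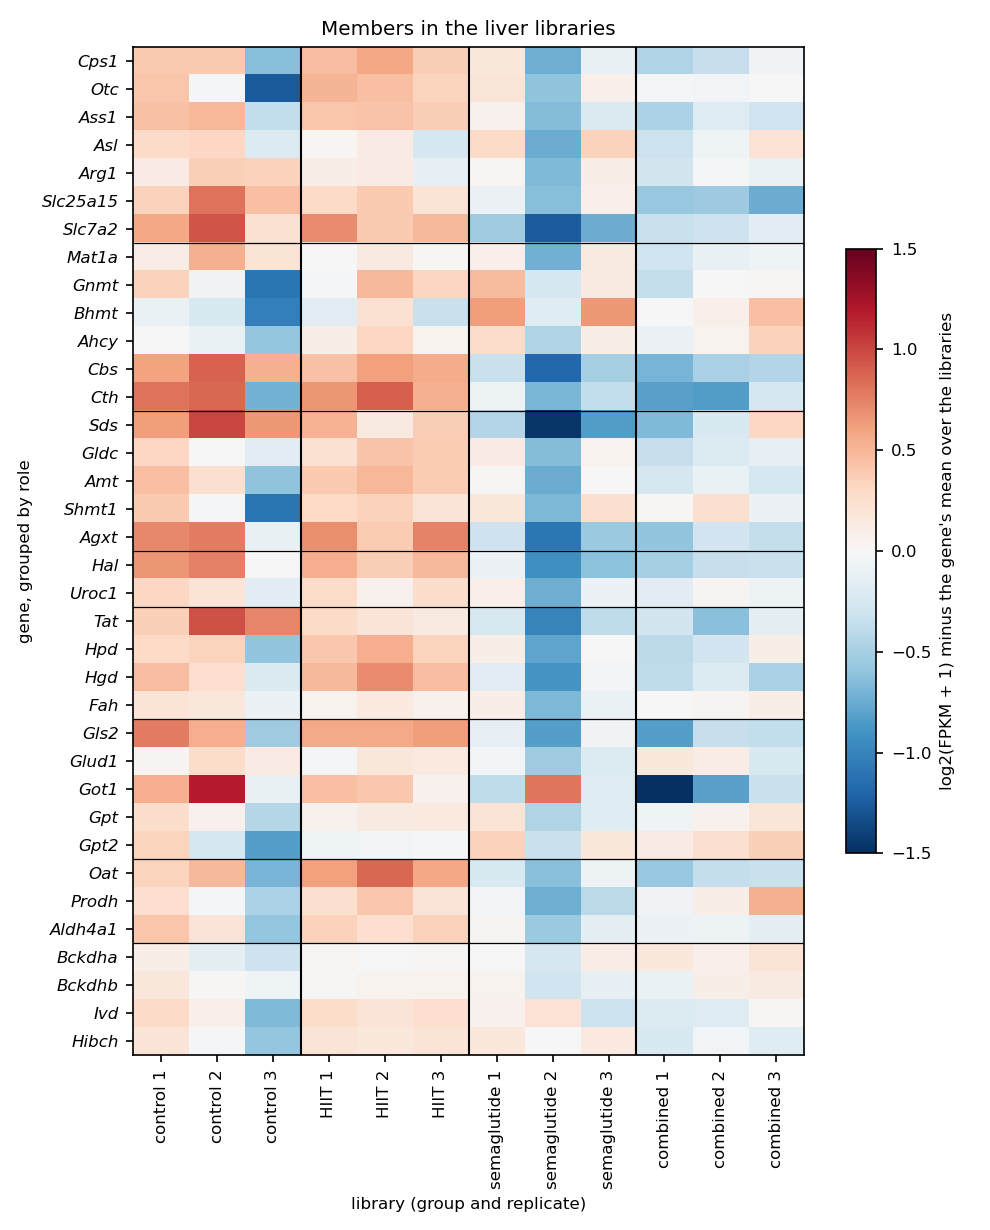
Each row is a gene, grouped by role, and each column a liver library; colour is log2(FPKM + 1) minus the gene's mean over the 12 libraries, with the scale ending at 1.5 in either direction. Control 3 and semaglutide 2 are blue over most rows, HIIT libraries are red over most, and the combined libraries are blue for Cbs, Slc7a2, Slc25a15 and Agxt.

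Of the urea cycle and its carriers, all 7 had lower means with semaglutide and 2 fell. Slc25a15 encodes the carrier that exchanges ornithine and citrulline across the inner mitochondrial membrane. Its level was 112, 156 and 121 FPKM in controls 1 to 3, 108, 116 and 102 after HIIT, 82.8, 56.1 and 92.6 under semaglutide, and 59.3, 59.9 and 52.2 in the combined group. Every drug-treated library lay below every other library, and the combined group had the lowest mean. The change was -0.84 ± 0.13 (limma adjusted p = 0.0131), a fold of 0.559. Slc7a2, a transporter of arginine, lysine and ornithine in the plasma membrane, stood at 64.5, 83.3 and 50.3 FPKM in controls, 70.7, 56.5 and 60.7 after HIIT, 29.4, 17.5 and 25.3 under semaglutide, and 33.7, 34.3 and 38.4 in the combined group. Again no library of one side reached the other, and the semaglutide group was the lowest. Its change was -1.11 ± 0.15 (limma adjusted p = 0.00667), a fold of 0.463.

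The 5 enzymes of the cycle itself did not pass with all libraries. Cps1, which fixes ammonia as carbamoyl phosphate in mitochondria, changed by -0.52 ± 0.21 and Ass1, which joins citrulline to aspartate, by -0.59 ± 0.18 (limma adjusted p = 0.233 and 0.118). Ass1 ran from 1393 to 2527 FPKM, median 2404, without the drug and from 1145 to 1871, median 1504, with it. Without control 3 and semaglutide 2 the ranges parted, with at least 2313 FPKM on one side and at most 1871 on the other, and both genes fell (Ass1 by 0.63 ± 0.09, adjusted p = 0.00594; Cps1 by 0.56 ± 0.10, adjusted p = 0.0121). Otc, which makes citrulline, Asl, which releases arginine, and Arg1, the arginase that releases urea, changed by -0.14 ± 0.25, -0.09 ± 0.20 and -0.31 ± 0.15 and did not pass in either fit. The 2 carriers thus had larger changes than any of the 5 enzymes, in size and not by a test of that difference.

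Of the 6 genes of methionine metabolism 1 fell with all libraries. This was Cbs, the gene of cystathionine beta-synthase, which commits homocysteine to cysteine synthesis, and it had the smallest p of the 36 genes. Its level was 208, 253 and 198 FPKM in controls, 185, 209 and 201 after HIIT, 108, 59.9 and 96.3 under semaglutide, and 83.6, 97.3 and 100 in the combined group. The highest drug-treated library was far below the lowest untreated library, a change of -1.21 ± 0.14 (limma adjusted p = 0.00365) or a fold of 0.432. Cth, the next enzyme of the route, lay at 227 to 691 FPKM, median 619, without the drug and at 207 to 353, median 258, with it. Only control 3, at 227, lay within the range of the treated libraries. The change of -1.02 ± 0.26 did not pass with all libraries (limma adjusted p = 0.0765) and did without the 2 divergent ones (-1.20 ± 0.13, adjusted p = 0.00161).

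Of the other methionine genes, Bhmt had higher means with the drug, at 3393 to 6049 FPKM, median 4673, against 1895 to 4511, median 3362. These ranges overlapped, and the change of 0.54 ± 0.22 did not pass with all libraries (limma adjusted p = 0.24). Without the divergent libraries it rose by 0.53 ± 0.14 (adjusted p = 0.0456). Mat1a, which makes S-adenosylmethionine, Gnmt, which consumes it to methylate glycine, and Ahcy, which splits the S-adenosylhomocysteine formed, changed by -0.33 ± 0.16, 0.00 ± 0.24 and 0.07 ± 0.16 and passed in neither fit.

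All 5 genes of serine, glycine and glyoxylate metabolism had lower means with the drug and 2 fell. Agxt, the aminotransferase that turns glyoxylate into glycine in peroxisomes, stood at 168, 173 and 93.9 FPKM in controls, 165, 132 and 170 after HIIT, 81.2, 47.3 and 68.3 under semaglutide, and 66.7, 83 and 78.9 in the combined group. The sides did not overlap, with control 3 the nearest to the treated range. Agxt changed by -1.07 ± 0.18 (limma adjusted p = 0.0169). Sds, which deaminates serine to pyruvate, stood at 418, 544 and 425 FPKM in controls, 390, 296 and 351 after HIIT, 200, 97.9 and 151 under semaglutide, and 170, 231 and 336 in the combined group. Combined library 3 lay within the HIIT range, so Sds was the only one of the 7 whose sides overlapped. Its change was -1.10 ± 0.20 (limma adjusted p = 0.0234). Gldc and Amt, subunits of the glycine cleavage system, changed by -0.39 ± 0.14 and -0.45 ± 0.19 and did not pass with all libraries, though Amt fell by 0.48 ± 0.07 without the divergent ones. Shmt1, the cytosolic serine hydroxymethyltransferase, changed by -0.04 ± 0.24.

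Histidine and tyrosine breakdown each had their first enzyme lower. Hal, which deaminates histidine to urocanate, stood at 142, 152 and 89.3 FPKM in controls, 131, 116 and 126 after HIIT, 84.2, 47.1 and 58.4 under semaglutide, and 63.4, 70.2 and 70.9 in the combined group. The sides did not overlap, with control 3 and semaglutide 1 next to each other, and Hal changed by -0.93 ± 0.16 (limma adjusted p = 0.0192). Uroc1, the next step, changed by -0.31 ± 0.14 and did not pass. Tat, the tyrosine aminotransferase long used as a marker of glucocorticoid and glucagon action in liver, stood at 852, 1290 and 1105 FPKM in controls, 810, 758 and 727 after HIIT, 562, 331 and 509 under semaglutide, and 550, 429 and 599 in the combined group. HIIT libraries lay between controls and treated libraries without touching either. The change of Tat with the drug was -0.89 ± 0.16 (limma adjusted p = 0.0232). Of the later tyrosine enzymes, Hgd changed by -0.72 ± 0.17 (limma adjusted p = 0.0541), Hpd by -0.44 ± 0.21 and Fah by -0.18 ± 0.13. Without the divergent libraries Hgd fell by 0.69 ± 0.09 and Hpd by 0.45 ± 0.11, and Fah and Uroc1 did not pass.

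None of the 12 genes of the remaining groups passed with all libraries. In the glutamate group, Gls2, the liver-type glutaminase, changed by -0.85 ± 0.22, and Got1, the cytosolic aspartate aminotransferase, by -0.85 ± 0.29 (limma adjusted p = 0.0831 and 0.157). Got1 ran against most genes in semaglutide 2, where at 191 FPKM it was the highest of its group, beside 83.8 and 95.1. This is the library whose skeletal muscle markers summed to 9878 FPKM, and their part in the value of Got1 was not tested. Glud1, the mitochondrial glutamate dehydrogenase, stood at 320, 376 and 338 FPKM in controls, 307, 349 and 343 after HIIT, 303, 215 and 269 under semaglutide, and 347, 336 and 264 in the combined group, and it changed by -0.24 ± 0.11. The alanine aminotransferases Gpt and Gpt2 changed by -0.08 ± 0.14 and 0.29 ± 0.18. Gls2 and Got1 fell, by 0.93 ± 0.10 and 1.19 ± 0.23, without the divergent libraries.

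In the ornithine and proline group, Oat, which moves nitrogen from ornithine towards proline and glutamate, changed by -0.73 ± 0.20 (limma adjusted p = 0.0885). It fell by 0.83 ± 0.09 without the divergent libraries (adjusted p = 0.00161). Aldh4a1, which finishes proline breakdown, changed by -0.33 ± 0.16 and fell by 0.39 ± 0.07 without those libraries. Prodh, the proline dehydrogenase, stood at 138, 115 and 83.6 FPKM in controls, 137, 154 and 133 after HIIT, 113, 69.3 and 87.3 under semaglutide, and 112, 125 and 169 in the combined group. Its highest library was a combined one, and its change with the drug was -0.20 ± 0.16. The 4 branched-chain genes had changes of -0.14 to 0.10 with all libraries and of -0.34 to 0.10 without the divergent ones, where Ivd changed by -0.34 ± 0.09 (limma adjusted p = 0.0548). Of these, Bckdha and Bckdhb encode the E1 subunits of the branched-chain keto acid dehydrogenase and Ivd acts on the leucine route. Hibch, on the valine route, stood at 49.5, 42.2 and 28.5 FPKM in controls, 49.6, 48.4 and 50.1 after HIIT, 48.5, 43.3 and 48 under semaglutide, and 36.7, 42 and 38.1 in the combined group, a change of -0.05 ± 0.12. With or without the divergent libraries, 0 of these 4 genes passed.

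**Figure D2:**
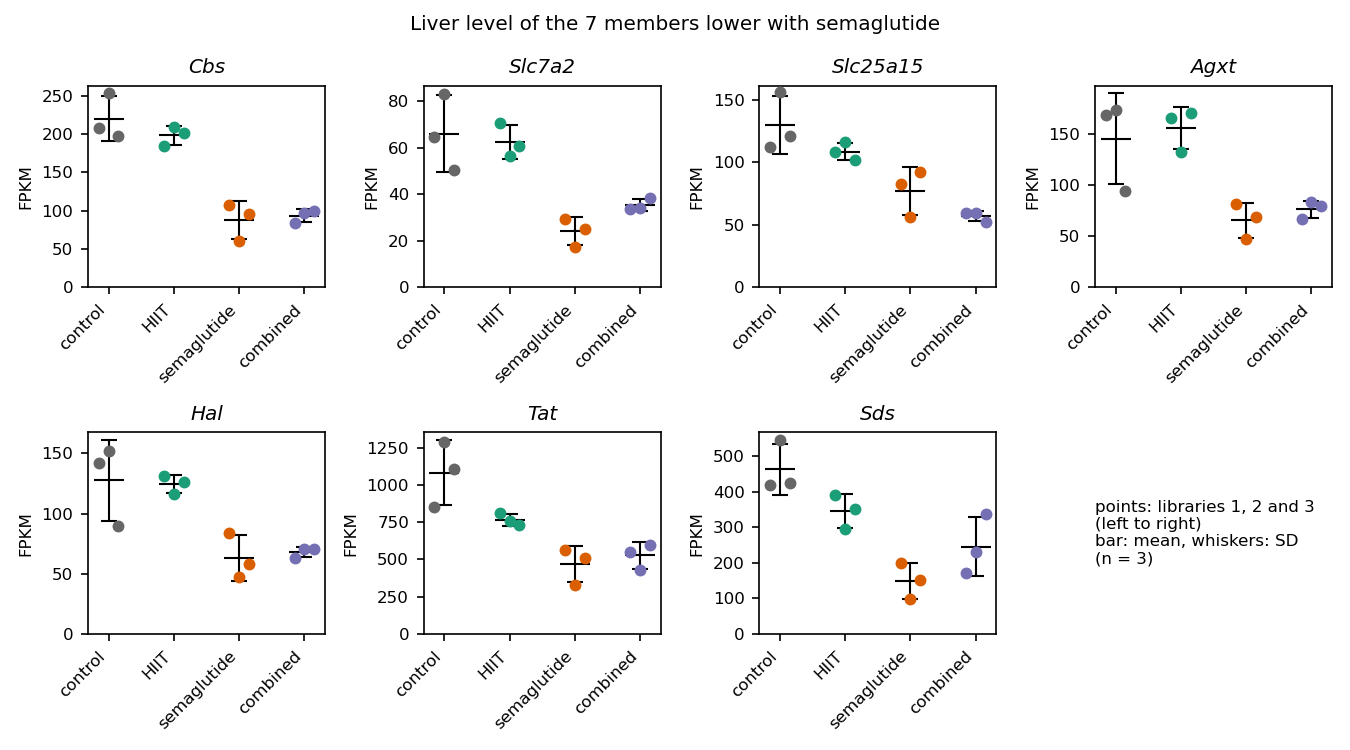
Each panel is a gene that fell with semaglutide in liver; points are libraries 1 to 3 of a group on a linear FPKM axis from 0, the bar is the mean and the whiskers the SD (n = 3). Except for Sds, the semaglutide and combined points all lie below the control and HIIT points.

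**Figure D3:**
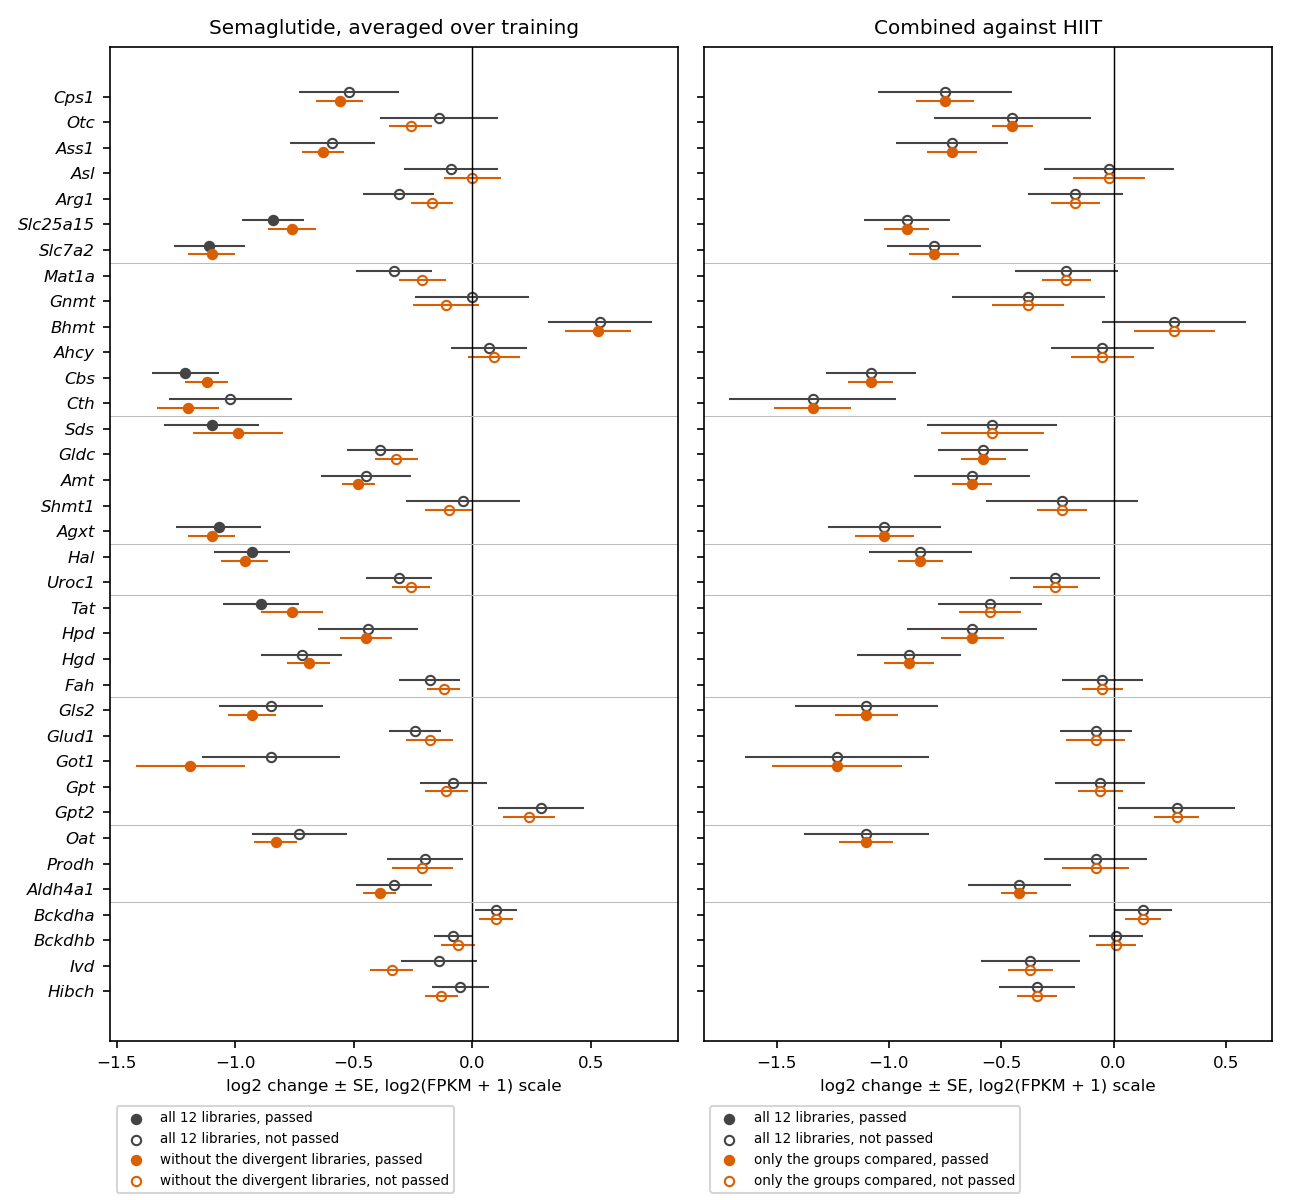
Log2 change with its SE for each of the 36 genes, grouped by role, for the semaglutide main effect and for combined against HIIT; filled points passed the adjusted threshold and open points did not. Orange points are a second fit, without control 3 and semaglutide 2 for the main effect (18 filled) or with only the 2 groups compared for combined against HIIT (17 filled), with shorter error bars than in the fit of all 12 libraries. On the left some estimates move between the fits, such as Got1 from -0.85 to -1.19 and Ivd from -0.14 to -0.34, and on the right they are the same.

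With all libraries, 6 of the 36 genes had no drug-treated library above any other library, against 1.2% of all genes. Without control 3 and semaglutide 2 it was 17, against 5.18%. Control 3 is an untreated library that was low for most of the 36 genes, at a median ratio of 0.644 against 0.962 over all genes tested. Leaving it out favours separation of these genes beforehand, so the 17 are no independent support. Hepatocyte markers summed to 16582 to 33730 FPKM in controls, 39687 to 40585 after HIIT, 18889 to 34664 under semaglutide and 36248 to 39795 in the combined group, and 0 of the 5 tested passed in the drug comparison, where their median change was 0.20. Macrophage markers summed to 35.6 to 352, 28.6 to 59.2, 27.5 to 340 and 60.1 to 98.2 FPKM in the same order. Their part in the changes above was not tested. Of the 5 adipocyte markers, Cidec, a lipid droplet protein that fatty hepatocytes also make, rose by 3.12 ± 0.55 (limma adjusted p = 0.0202), from 0.985 to 8.5 FPKM over the untreated libraries to 10.9 to 40.9 over the treated ones other than semaglutide 2, which had 194. It rose by 2.58 ± 0.44 without the divergent libraries (adjusted p = 0.011). Adipocyte markers summed to 1656 FPKM in semaglutide 2 and to at most 53.9 in the other liver libraries, and 3 or 4 of the 5 lay below 1 FPKM in each liver library but semaglutide 2.

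Most genes that fell were measured from a single main transcript. Agxt and Slc25a15 each have 1 transcript in the liver values, and the leading transcripts of Hal, Tat, Slc7a2 and Sds held 100, 99.9, 99.7 and 95.2% of the gene's FPKM. Cbs was spread over 9 transcripts, of which the leading ENSMUST00000078509 held 75.3% and ENSMUST00000236853 14.1%. The first averaged 178 ± 24.2 FPKM in controls, 150 ± 13.7 after HIIT, 59.2 ± 17.6 under semaglutide and 64.5 ± 10.6 in the combined group (SD, n = 3), and the second 27.8 ± 7.07, 28.8 ± 5.46, 14.3 ± 6.31 and 13.5 ± 4.78. Both transcripts of Cbs were lower in the drug-treated groups. Exons of 7 of the 36 genes overlap those of another gene in the reference annotation, 6 of them on the opposite strand. Among these are Slc7a2, Sds, Bhmt and Gls2. How the counting treated strand is not stated in the sources used here, so their values are uncertain.

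The promoters of Hal, Tat, Agxt and Cbs, 4 of the 7 genes that fell, are shown, 250 bases before to 50 after the start, from RefSeq on GRCm38.p6 (the deposited values use GRCm39). Capitals mark matches to TTNCNNAA, a loose C/EBP pattern that contains the stricter TTGCNNAA, read on both strands:
Hal, chr10:93488518-93488817, plus strand: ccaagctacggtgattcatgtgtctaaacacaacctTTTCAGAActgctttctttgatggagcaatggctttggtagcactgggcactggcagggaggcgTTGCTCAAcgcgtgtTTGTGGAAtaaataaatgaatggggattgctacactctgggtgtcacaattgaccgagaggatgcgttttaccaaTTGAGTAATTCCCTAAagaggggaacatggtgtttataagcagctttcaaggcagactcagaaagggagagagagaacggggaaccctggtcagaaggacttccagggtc
Tat, chr8:109990186-109990485, plus strand: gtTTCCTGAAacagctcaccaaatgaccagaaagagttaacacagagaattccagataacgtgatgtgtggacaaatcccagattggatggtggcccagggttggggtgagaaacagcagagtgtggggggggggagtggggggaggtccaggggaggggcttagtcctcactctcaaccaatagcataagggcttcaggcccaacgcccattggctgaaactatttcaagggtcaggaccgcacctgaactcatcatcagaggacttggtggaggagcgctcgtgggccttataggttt
Agxt, chr1:93134990-93135289, plus strand: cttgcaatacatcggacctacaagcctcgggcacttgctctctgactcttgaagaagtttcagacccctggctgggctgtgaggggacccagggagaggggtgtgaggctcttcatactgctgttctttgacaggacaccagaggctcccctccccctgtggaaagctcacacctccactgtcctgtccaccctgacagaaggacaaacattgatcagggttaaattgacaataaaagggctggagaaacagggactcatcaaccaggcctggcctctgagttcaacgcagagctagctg
Cbs, chr17:31637156-31637455, minus strand: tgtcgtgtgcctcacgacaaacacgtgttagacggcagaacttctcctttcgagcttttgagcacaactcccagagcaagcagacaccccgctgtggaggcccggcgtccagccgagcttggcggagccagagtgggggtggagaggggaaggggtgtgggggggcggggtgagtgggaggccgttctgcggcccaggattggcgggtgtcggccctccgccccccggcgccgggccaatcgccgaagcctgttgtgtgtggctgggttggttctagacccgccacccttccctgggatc
C/EBP factors are known regulators of amino acid enzymes in liver. Of the 36 genes, 27 had a promoter entry, with 29 promoters in all, and Sds and Slc7a2 had none. The loose pattern was found in 10 of the 29, or 34.5%, and in 40.7% of the 32851 promoters of the table. Hal held 5 matches, at -214, -150, -135, -60 and -52 from the start, of which the one at -150 also meets the strict pattern, and Tat held 1, at -248. The promoters of Agxt, Cbs and Slc25a15 held none. The strict pattern was in 2 of 29 (10.8% of all promoters) and a C/EBP-ATF pattern, TGATGNAA, in 1 of 29 (4.0%). TGACG, a core of the cyclic AMP response element, was in 2 of 29, Shmt1 and Oat, and in 20.8% of all promoters. A match is a description of the letters in this window and no evidence of binding.

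With semaglutide alone against control, 27 of the 36 genes had lower means, against 36.2% of all genes, and 4 fell, where 0.715% of all genes passed and 0.464% passed downward. Slc7a2 changed by -1.42 ± 0.21, Cbs by -1.34 ± 0.20, Sds by -1.67 ± 0.29 and Tat by -1.23 ± 0.23, with limma adjusted p-values of 0.0241, 0.0241, 0.0332 and 0.0413. In 9 of the 36 the groups did not overlap and the drug group was lower, against 6.77% of all genes. The median change was -0.32, and 0.09 over all genes. Without the divergent libraries 4 again fell, but they were Agxt, Cbs, Hal and Slc7a2, of which 2 are shared with the first 4, and 0.593% of all genes passed, 0.386% downward. The count was 0 without control 2 or without semaglutide 3, 2 without control 3 or without semaglutide 2, and 0 with only these 2 groups in the fit, where 0% of all genes passed. For the fits that leave out a single library, shares of all genes are not given.

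With both treatments against the same controls, 26 of 36 had lower means, against 39.2% of all genes. Of the 36, 2 fell, where 0.309% of all genes passed and 0.135% passed downward: Slc25a15 by 1.16 ± 0.19 and Cbs by 1.22 ± 0.20 (limma adjusted p = 0.0349 and 0.0367). The median change was -0.22, and 0.05 over all genes. In 10 genes the combined group lay wholly below control (6.23% of all genes) and in 1, Bhmt, wholly above (13.8%). Without the divergent libraries 14 genes fell, where 3.07% of all genes passed and 1.29% passed downward, among them Cth by 1.48 ± 0.19, Got1 by 1.79 ± 0.32 and Gls2 by 1.17 ± 0.15. The count was 0 without control 2 or 3, and 0 without any of the combined libraries in turn, fits for which shares of all genes are not given.

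Combined against HIIT shows the drug in trained mice and holds neither divergent library. Here 32 of 36 genes had lower means, against 46.6% of all genes, and the median change was -0.44 against 0.02. In 22 genes every combined library lay below every HIIT library, against 14.5% of all genes, and in 2 every library lay above (17.3%). With the 4 groups in the fit, 0 genes passed, where 0.116% of all genes did and where 15 of the 36 were lower at an unadjusted p under 0.05, against 5.75% of all genes. Fitted with only these 2 groups, 17 genes fell and 0 rose, where 5.64% of all genes passed and 2.55% passed downward. They included Cth by 1.34 ± 0.17, Gls2 by 1.10 ± 0.14, Oat by 1.10 ± 0.12 and Cps1 by 0.75 ± 0.13 (limma adjusted p = 0.0104, 0.00967, 0.00755 and 0.019). The estimates are the same in both fits, and the SE of Cps1 was 0.30 in the first. With the 4 groups in the fit but without the divergent libraries, 18 fell, where 7.63% of all genes passed and 3.66% passed downward.

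With training alone, changes of the 36 genes ran from -0.48 to 0.71, and with 3 libraries per group a small effect is not established. Against control, 0 of the 36 genes passed and 0% of all 10348 genes did, with 1 of the 36 at an unadjusted p under 0.05 where 7.22% of all genes were. That gene was Oat, at 915, 1016 and 447 FPKM in controls and 1107, 1321 and 1088 with HIIT, a change of 0.64 ± 0.28 (limma adjusted p = 0.682). Groups did not overlap for 6 of the 36, with 3 higher after HIIT (11% of all genes) and 3 lower (5.7%). Among the latter was Tat, with a change of -0.48 ± 0.23 (limma adjusted p = 0.687). The median change was 0.21 with all libraries and -0.05 without control 3, the divergent library of this comparison, so its direction rests on that library. There the change of Oat was 0.28 ± 0.13. Training added to semaglutide, averaged over the drug, or as an interaction with it likewise gave 0 genes passed of the 36, where 0, 0 and 0.00966% of all genes passed, and 4, 2 and 2 of the 36 had an unadjusted p under 0.05, against 7.85, 7.16 and 8.61% of all genes. Among them was Prodh averaged over the drug (0.47 ± 0.16, adjusted p = 0.588). Sds averaged 150 ± 50.9 FPKM with semaglutide and 246 ± 84.3 with both (SD, n = 3), and its interaction of 1.13 ± 0.41 did not pass (limma adjusted p = 0.556). Without the divergent libraries 0 of the 36 genes passed in these 3 comparisons either, Prodh changed by 0.29 ± 0.13 and the interaction of Sds was 0.91 ± 0.37. The median change for training averaged over the drug was 0.13 with all libraries and -0.06 without those, and for training added to semaglutide it was 0.07 and -0.15, so both directions rest on the divergent libraries.

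Among other genes of amino acid breakdown, listed for comparison, 48 of 50 were tested for the drug effect, 2 fell and 1 rose, with a median change of -0.09. For this and the lists that follow, the shares of all genes are the 2.01% passed and 1.02% passed downward given above. Amdhd1, the third enzyme of histidine breakdown, fell by 0.90 ± 0.17 (limma adjusted p = 0.0263), and Kyat1, a kynurenine and cysteine conjugate aminotransferase, by 0.60 ± 0.11 (adjusted p = 0.0234). Csad, which leads cysteine sulfinate to taurine, rose by 1.69 ± 0.26 (adjusted p = 0.0119), from 5.98 to 12.3 FPKM over the untreated libraries to 20 to 65.7 over the treated ones. Of 20 amino acid transporters 13 were tested and 1 fell, Slc25a44, the mitochondrial carrier of branched-chain amino acids (-0.47 ± 0.10, adjusted p = 0.0407). Of 13 regulators, 1 fell: Klf15, a glucocorticoid-responsive activator of amino acid breakdown, which lay at 61.7 to 91 FPKM without the drug and 37.6 to 58.5 with it (-0.62 ± 0.11, adjusted p = 0.024). The glucagon receptor gene Gcgr changed by 0.03 ± 0.15. Of 6 periportal markers outside the 36 genes, Sdc1 and Aldh1b1 fell, by 0.91 ± 0.11 and 0.86 ± 0.17, with a list median of -0.47, and of 8 pericentral markers tested Cyp1a2 fell, by 1.07 ± 0.14, with a median of -0.00. Amdhd1, Kyat1, Csad, Slc25a44, Klf15, Sdc1, Aldh1b1 and Cyp1a2 passed again, in the same direction, without the divergent libraries, with changes of -0.96, -0.59, 1.81, -0.51, -0.61, -0.82, -0.74 and -0.93. In that fit 11 of 46 other breakdown genes fell and 1 rose, and 3 of 11 transporters fell, beside the 4.39% downward and 2.99% upward over all genes. There 1 of 13 regulators fell and 1 rose, 2 of 6 periportal markers fell and 1 rose, and 1 of 8 pericentral markers fell.

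In kidney, 27 of the 36 genes were tested and 9 stayed below the filter of 1 FPKM in 4 libraries: Cps1, Otc, Arg1, Sds, Tat, Mat1a, Hal, Gls2 and Agxt. Otc was listed at 0 in every kidney library and Cps1 reached at most 0.0138 FPKM. Arg1 reached 62.2 FPKM in control 1 and at most 0.0882 in the other controls. The levels of control kidney were led by Ass1 at 960 ± 257 FPKM (SD, n = 4), followed by Fah at 223 ± 50.9, Glud1 at 206 ± 38.6, Hgd at 169 ± 46.5, Hpd at 167 ± 56.9 and Asl at 155 ± 26.4. After Ass1, each of these means differed from the next by less than its SD. In control liver Ass1 averaged 2118 FPKM, Fah 404 and Bhmt 2936, and Bhmt averaged 37.4 ± 15.4 in kidney. The tables of the tissues were normalised separately, so these levels are set side by side and were not tested. The 36 genes held 0.32 to 0.69% of the FPKM of named genes in a kidney library.

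**Figure D4:**
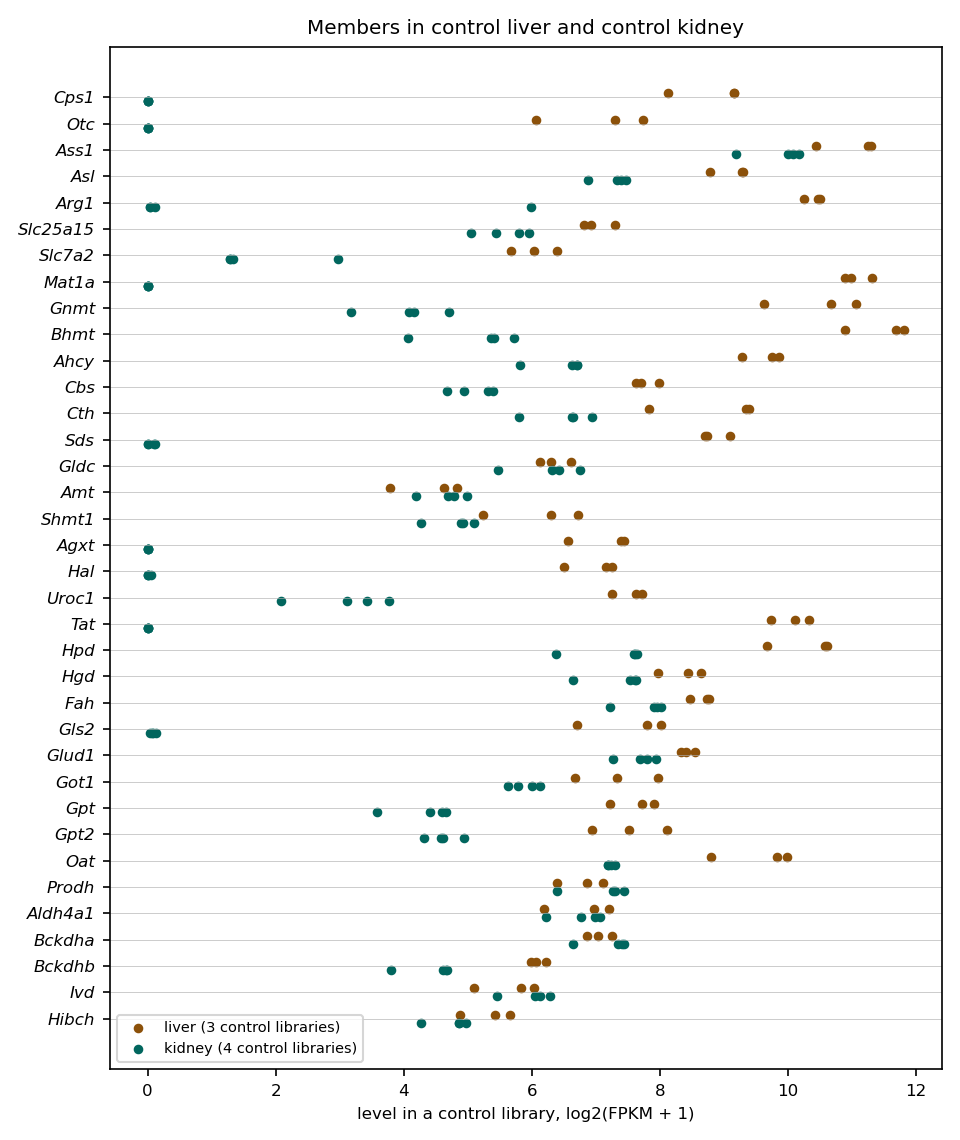
Level of each gene on the log2(FPKM + 1) scale in the 3 control liver libraries and the 4 control kidney libraries, in the order of the role groups. Prodh, Ivd, Amt, Bckdha, Aldh4a1 and Gldc lie close together in the tissues, while Cps1, Otc, Mat1a, Agxt and Tat are at 0 in control kidney.

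No treatment changed any of the 27 genes in kidney at the adjusted threshold. In the 8 kidney comparisons 0 genes passed by limma, where at most 0.0173% of all genes did. With HIIT, semaglutide and both against control the shares of all genes that passed were 0, 0.00866 and 0%, and 2, 2 and 2 of the 27 had an unadjusted p under 0.05, against 12.5, 3.32 and 2.99% of all genes. For the drug effect 5 of the 27 did, 4 higher and 1 lower, against 4.65% of all genes. The count was 2 for combined against HIIT (5.94% of all genes), 1 for training (3.87%), 0 for combined against semaglutide (1.14%) and 0 for the interaction (3.95%). Mitochondrially encoded transcripts made up 60.53 and 58.6% of the FPKM of HIIT 1 and 2, and 23.21 to 51.01% elsewhere, so the values of other genes are lower there. As deposited, the median over all kidney genes was -0.26 for HIIT against control and -0.14 for semaglutide against control, and median-ratio scaling of the libraries brings these to -0.01 and 0.01. Changes of the 27 genes are therefore read against these medians. Their own medians were -0.22 with HIIT, -0.04 with semaglutide and 0.02 with both against control, and 0.08, 0.13 and 0.12 after scaling. As deposited, 22, 17 and 12 of the 27 had lower means, against 85.2, 79.4 and 68.3% of all genes, and after scaling 9, 4 and 10 did. Without control 1 it was 27, 21 and 21 of the 27, with medians of -0.41, -0.23 and -0.15 beside -0.19, -0.06 and -0.01 for all genes. Shares of all genes with lower means are not given after scaling or without control 1. Those counts are therefore not read as particular to the 27 genes. The directions in kidney thus depend on the scale and on control 1. Without HIIT 4, 2 of the 27 passed for HIIT against control, as did 2123 genes in all.

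Some of the genes nearest to a change in kidney are given as values, chosen after they were seen. Ahcy, with a drug effect of 0.39 ± 0.15 (limma adjusted p = 0.881), was about as near and is not listed here. The same holds for Aldh4a1, with -0.81 ± 0.32 for HIIT against control (limma adjusted p = 0.378). Slc7a2 had the smallest p against control, with 6.88, 1.44, 1.53 and 1.44 FPKM in controls, 0.802, 1.01, 1.21 and 1.71 after HIIT, 0.757, 0.626, 1.03 and 0.764 under semaglutide, and 0.906, 0.938, 0.881 and 1.14 in the combined group. Control 1 was far above the rest, and every semaglutide library lay below every control, as for 3.09% of all genes. The change with semaglutide was -0.88 ± 0.29 (limma adjusted p = 0.913), and -0.46 ± 0.15 without control 1. Glud1 stood at 154, 205, 221 and 245 FPKM in controls, 108, 126, 211 and 200 after HIIT, 313, 220, 306 and 233 under semaglutide, and 281, 424, 211 and 157 in the combined group. The groups overlapped, and the drug effect of 0.53 ± 0.20 did not pass (limma adjusted p = 0.805), nor did that of 0.47 ± 0.20 without control 1. Gpt stood at 11, 20.3, 24.3 and 23.3 FPKM in controls and 40.6, 31.4, 25.5 and 27.2 with semaglutide. These groups did not overlap (0.493% of all genes were higher without overlap), and its change of 0.67 ± 0.27 did not pass either (limma adjusted p = 0.913). Control 1 held the lowest value, and without it the change was 0.43 ± 0.25.

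**Figure D5:**
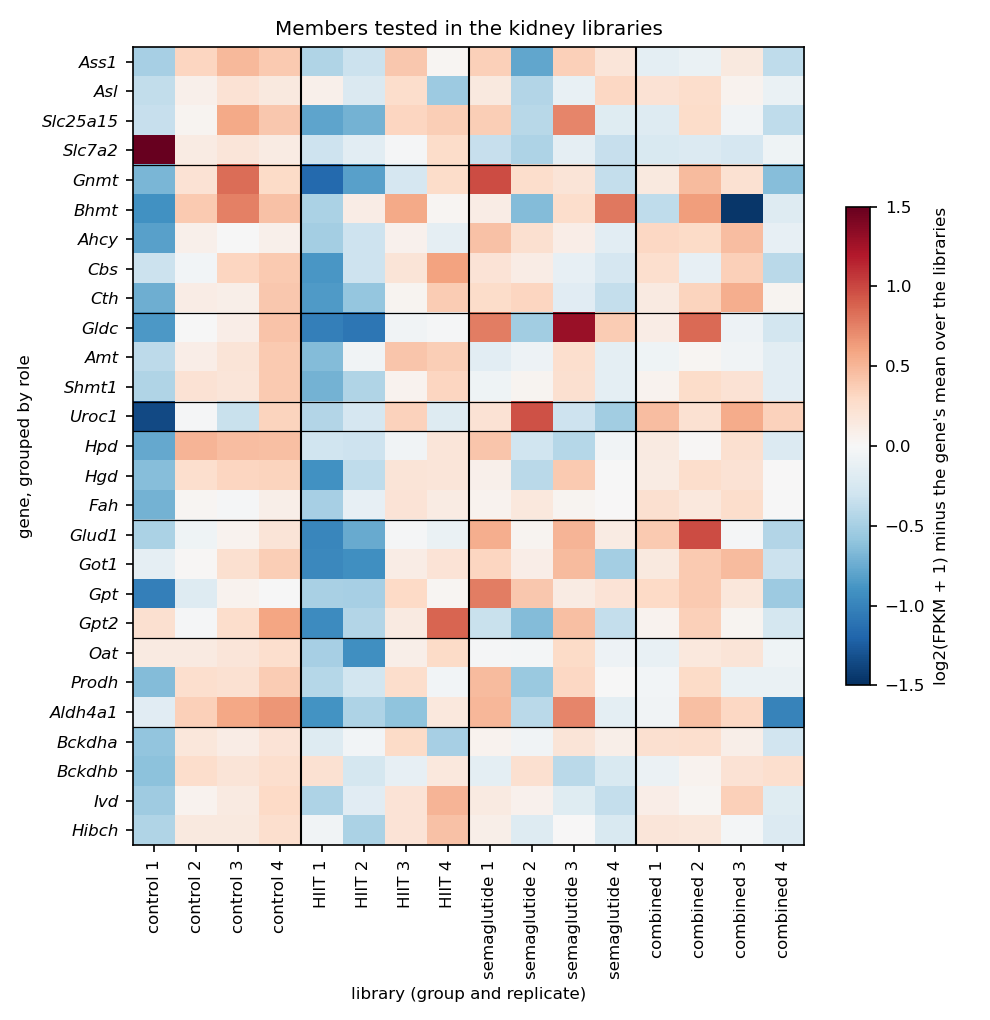
Each row is a gene tested in kidney and each column a library; colour is log2(FPKM + 1) minus the gene's mean over the 16 libraries, with the scale ending at 1.5 in either direction. Control 1, HIIT 1, HIIT 2 and combined 4 are blue over most rows, and Slc7a2 is red in control 1.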

How the data were processed

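Polyadenylated RNA of liver and kidney was sequenced from libraries that the labels call stranded, in pairs. Per the submitters' processing notes, the tools were STAR 2.7.9a, StringTie 2.1.4, featureCounts 2.0.1, Trimmomatic 0.36, FastQC and CASAVA, listed with no role, and the build was GRCm39. How the counting treated strand is not stated. The values deposited by the authors are FPKM, per transcript in liver and per gene in kidney. Liver transcripts were summed by gene name. Rows without a gene name (470 in liver, with 0.17 to 0.27% of a library's FPKM, and 1853 in kidney, with 3.13 to 11.53%) were left out. Counts could not be recovered: at best 25.2 to 33.6% of low liver values came within 0.05 of whole steps. No libraries were identical (highest correlation 0.9962 in liver and 0.9947 in kidney).

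Genes with at least 1 FPKM in 3 liver or 4 kidney libraries (10348 and 11551) were fitted as log2(FPKM + 1) with limma 3.58.1 in R 4.3.3 (lmFit, contrasts.fit, eBayes with a trend), all 4 groups of each tissue together and without a block, Benjamini-Hochberg adjusted at 0.05. Comparisons of a tissue share libraries. A pseudocount understates the change of low genes. On data simulated for semaglutide against control, the fit recovered 77.6% of liver genes changed by a log2 of 1, with 11 false calls, and 62.7% in kidney, with 8, and made 0 calls with no change. In the measured liver data, combined against HIIT held changes down to -1.34 among the 36 genes and 0 passed. The simulated shares therefore do not carry over to every comparison, and a gene that did not pass is not shown to be unchanged. Alternatives tried were median-ratio scaling, a pseudocount of 0.1, the unfiltered genes, removal of mitochondrial transcripts, a replicate block, only the groups compared, and libraries left out. Figures used Python 3.11.15 and matplotlib 3.10.9.

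The 36 genes, the lists and the divergent libraries were chosen with earlier results of these data known. Values of every library are given for each of the 36 genes that passed in any comparison with all libraries and, for a role group with none, for the gene with the smallest p for semaglutide against control in liver; Ass1, Cth, Bhmt, Oat, Got1 and other genes of the 36 described with ranges or changes were picked once their values were known. In the comparison lists the genes that passed are named, at most 4 per list, and Gcgr was added after its value was seen. The reference annotation and promoter table are of another build, GRCm38, and served for gene overlaps and promoter letters only.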

Additional observations from a re-analysis of the deposited data

Results flagged for a closer look

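In groups of 4 kidney libraries, 109 groups of a gene with at least 1 FPKM in a library were searched for a library far from the others, by a gap to its nearest neighbour, as a share of the group's range in log2(FPKM + 1), above Dixon's critical value. Chance gives such a library in about 1 of 20 groups only where the groups are independent. Here the genes share the same 4 libraries, so the count found cannot be set against that rate. There were 12 such libraries, 10 of them control 1. In control 1 Arg1 was 62.2 FPKM against at most 0.0882 in the other controls, and Slc7a2 was 6.88 against at most 1.53. The control group of Arg1 met the 1 FPKM rule only through control 1, so that flag followed from the rule. Control 1 had already been set apart on these same genes, so its flags are no new support for that. In the same library 8 genes were lowest: Ahcy at 55.5 FPKM, Hpd at 82.1, Hgd at 99.4, Fah at 148, Prodh at 83.3, Bckdha at 99, Bckdhb at 13 and Hibch at 18.3, against at least 98, 193, 185, 240, 154, 162, 23.5 and 28.2 in the other controls. Macrophage markers of that library summed to 4800 FPKM, and proximal tubule markers to 1975 against a mean of 4384; their part in these values was not tested. The other 2 were Ass1 in semaglutide 2, at 480 FPKM against 933 to 1055, and Prodh in combined 2, at 161 against 123 to 128.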

How the results depend on the processing

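The calls rest on 3 liver libraries per group, of unknown depth. For the 13 gene and comparison pairs that passed, 204 values were recomputed: 132 passed with the same sign, 72 kept the sign and did not pass, and 0 reversed. Single genes passed in 10 to 18 of 18 alternatives for the drug effect, but in only 2 to 8 of 13 for the comparisons with control. The pairs were picked for passing and the fits share most libraries, so a lack of reversals was likely beforehand. Cbs, Slc7a2 and Slc25a15 passed for the drug effect in all 18 alternatives run. The count of genes passed for semaglutide against control, 4, was 1 without a filter, 1 after median-ratio scaling, 2 without mitochondrial transcripts, 0 with the replicate block and 0 with only the groups compared. For combined against control, 2, it was 0, 0, 1, 0 and 0 in the same order, and 14 without the divergent libraries. For combined against HIIT, 0, it was 18 without the divergent libraries and 17 with only the groups compared, and for the drug effect, 7, it was 18 without the divergent libraries and 5 with the block. Leaving out each library in turn gave 0 to 4, 0 to 3 and 3 to 13 for semaglutide against control, combined against control and the drug effect, and 0 to 2 for kidney HIIT against control. For most of these alternatives the share of all genes passed is not given, so the moves are not read as particular to these genes. Fewer samples enter the fits without libraries; otherwise the cause was not tested. For all genes, the drug effect called 102 higher and 106 lower as deposited and 86 and 148 after scaling, and combined against control 18 and 14, then 3 and 5. Replicate numbers gave no clear pairing of the samples, though correlations over so few libraries cannot exclude one. Same-numbered liver libraries correlated at -0.314 to 0.157 (median -0.085, other pairs 0.028), with 2 of 18 pairs over 0.1. Kidney ones correlated at -0.466 to 0.327 (median 0.079, other pairs -0.017), with 9 of 24. Of 260 recomputed medians over the genes, 3 moved by at least 1 SD.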
